A study of Mus musculus with 2 samples.

Results

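The alpha globin and beta globin loci of the mouse were compared for acetylated histone H3 in Th2 cells, a class of helper T cells known for making interleukin 4. The loci were taken as fixed stretches of the mm9 genome, chr11:32090001-32210000 for alpha globin and chr7:110930001-111030000 for beta globin. They hold 120 and 100 bins of 1 kb, together 220, of which 208 were among the 2246042 bins that carried a read in the series (covered bins). The other 12 are bins of the beta locus with no read in either library. The alpha stretch is defined by Mpg, Nprl3 and the Hba genes, with the Hba genes given as near 32180001 to 32200000, and the beta stretch by the Hbb genes and their control region.

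The reads come from ChIP-seq, in which antibody-bound chromatin is sequenced. The cells were CD4+CD62L+ splenocytes of C57BL/6 mice. For 5 days they were stimulated with anti-CD3/CD28 while IL-4 (10 ng/ml) and anti-IFN-g (2 µg/ml, against interferon gamma) were present, and 3 days of rest followed. The H3KAc library was precipitated with anti-H3KAc, directed at acetylated lysines of histone H3, which are typical of active chromatin. The control library was precipitated with polyclonal rabbit IgG of no set target and gives the background. Cells, strain, culture and fixation were the same for both, and whether animals were pooled is not given in the sources used here. With 1 library per group there is no replicate check and no p-value, and all intervals are exact 95% intervals that cover counting error between these libraries only.

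The globin genes code for the chains of hemoglobin and are expressed in erythroid cells, not in T cells. Mammalian alpha globin genes lie beside broadly expressed genes, and several of their distant enhancers sit within introns of one of these, Nprl3. The beta globin genes lie among olfactory receptor genes and depend on a locus control region, and in cells outside the erythroid lineage that neighbourhood is generally closed. In the RefSeq gene order of GRCm38, Il9r (the interleukin 9 receptor), Snrnp25 (a protein of the minor spliceosome), Rhbdf1 (an inactive rhomboid), Mpg (a DNA glycosylase for alkylated bases) and Nprl3 (a subunit of a complex that restrains mTOR signalling) are followed by Hba-x (an embryonic alpha-like chain), Hba-a1, Hbq1b, Hba-a2 and Hbq1a. Hba-a1 and Hba-a2 code for the adult alpha chain. On the beta side, Hbb-bt and Hbb-bs (the adult beta chains) come first, followed by Hbb-bh2. Hbb-bh1 and Hbb-y (embryonic chains) come next, and all of these lie between Olfr67 and Olfr66. This order comes from another build than the reads, so apart from the 20 kb given for the Hba genes no gene was placed on a bin, and the cell type could not be checked against marker genes.

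Promoter sequences of 4 of these genes are shown because they bear on what reads of 35 bases can show at each promoter. They are RefSeq promoters (GRCm38.p6, 250 bases before to 50 after the start, 5′ to 3′ on the gene's strand), and 13 of the 15 listed genes matched the table. In Hba-a1, capitals mark bases covered by 35-base words that also occur in the promoter of Hba-a2. In Hbb-bs, Mpg and Nprl3, capitals mark CG dinucleotides.
Hba-a1: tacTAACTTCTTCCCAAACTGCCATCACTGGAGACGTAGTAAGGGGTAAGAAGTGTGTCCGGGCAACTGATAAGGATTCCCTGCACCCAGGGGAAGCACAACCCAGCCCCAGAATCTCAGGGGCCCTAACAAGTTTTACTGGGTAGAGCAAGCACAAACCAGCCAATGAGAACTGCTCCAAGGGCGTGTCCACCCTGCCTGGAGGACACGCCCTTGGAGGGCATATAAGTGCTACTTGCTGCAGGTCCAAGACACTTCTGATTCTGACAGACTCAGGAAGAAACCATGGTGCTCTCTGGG
Hbb-bs: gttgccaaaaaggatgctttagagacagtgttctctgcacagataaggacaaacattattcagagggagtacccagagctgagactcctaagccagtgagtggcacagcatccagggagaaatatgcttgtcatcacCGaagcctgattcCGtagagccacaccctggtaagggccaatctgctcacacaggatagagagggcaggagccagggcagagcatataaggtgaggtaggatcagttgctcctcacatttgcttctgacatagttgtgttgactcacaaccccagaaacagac
Mpg: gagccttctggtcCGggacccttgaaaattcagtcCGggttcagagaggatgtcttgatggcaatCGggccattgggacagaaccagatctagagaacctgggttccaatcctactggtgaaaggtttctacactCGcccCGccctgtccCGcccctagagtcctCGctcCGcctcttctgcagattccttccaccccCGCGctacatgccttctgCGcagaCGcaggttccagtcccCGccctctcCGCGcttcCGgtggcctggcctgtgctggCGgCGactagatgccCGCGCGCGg
Nprl3: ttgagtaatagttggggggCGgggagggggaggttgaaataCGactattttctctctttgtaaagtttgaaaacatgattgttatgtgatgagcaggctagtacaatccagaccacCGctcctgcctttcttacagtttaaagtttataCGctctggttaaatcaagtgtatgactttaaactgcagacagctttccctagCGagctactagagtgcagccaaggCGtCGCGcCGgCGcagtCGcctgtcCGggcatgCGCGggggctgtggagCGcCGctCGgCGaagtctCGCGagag

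Of the 266 words of 35 bases in the Hba-a1 promoter, 263 (98.9%) also occur in that of Hba-a2. A read of that length from either gene's promoter thus has more than 1 possible place. How such reads were treated in the alignment is not given in the sources used here, and their effect on the counts at the Hba genes was not tested. The promoters of Hbq1a and Hbq1b share 72 of 266 words (27.1%), and those of Hbb-bs and Hbb-bt share none. Sequence of these genes outside the promoters was not compared. The promoters also differ in CG content. Mpg and Snrnp25 hold 22 CG dinucleotides each and Nprl3 holds 20, against a median of 7 over 32851 promoters. Hba-a1, Hba-a2 and Hbb-bh2 hold 4 each, Hba-x and Hbb-bs 2, and Hbb-bt and Hbb-y 1. The globin genes Hbq1b and Hbq1a, with 13 and 8, lie above that median, and the neighbour Il9r, with 5, lies below it. Short promoter motifs were searched on both strands, with overlaps between motifs kept. The Hba-a1 promoter holds TATAA 1 time (present in 24.9% of all promoters) and CACCC 2 times (57.5%). It holds the motif CCAAT 1 time (37.4%) and, 1 time as well, the motif GATAA (25.4%). These motifs are not particular to globin promoters. Il9r holds CACCC 2 times and GATAA 3 times, and Snrnp25 holds CCAAT 3 times. Of the 4 motifs, the globin gene Hbb-bh2 holds only GATAA and Hbq1a only CCAAT.

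H3KAc was higher at the alpha than at the beta globin locus, and so was IgG. Levels are distinct read positions per 1000000 distinct positions of the library (RPM), given per kb. The alpha locus had 2462 H3KAc positions or 1.04 RPM per kb (1.0 to 1.08). The beta locus had 353 positions or 0.179 RPM per kb (0.161 to 0.199). Per kb, the alpha level was 5.81 times the beta level (5.20 to 6.52). In the IgG library the alpha locus had 236 positions or 1.04 RPM per kb (0.908 to 1.18) and the beta locus 18 positions or 0.0949 RPM per kb (0.0562 to 0.150), a ratio of 10.9 (6.76 to 18.8). The intervals of the H3KAc and IgG ratios did not overlap, and the IgG ratio was the larger one. The intervals did overlap without the first and last 10 kb of each locus (4.76 to 6.12 in H3KAc, 5.73 to 17.0 in IgG). With reads of 1 strand alone they overlapped as well (for plus 5.02 to 6.97 and 5.32 to 23.5, for minus 4.90 to 6.73 and 5.81 to 25.5). Without the 10 bins of each locus with the most H3KAc, the ratio was 6.65 (5.80 to 7.64) in H3KAc and 18.6 (9.63 to 41.3) in IgG. The part of the IgG difference in the H3KAc difference was not tested.

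Set against IgG, the order of the loci was the opposite. The ratio of H3KAc to IgG was 1.004 (0.878 to 1.15) at the alpha locus and 1.89 (1.18 to 3.22) at the beta locus. The conditional odds ratio of alpha to beta was 0.532 (0.306 to 0.873). This comparison rests on the 18 IgG positions of the beta locus. Of these, 10 (55.6%) had a start on the opposite strand at the spacing of 100 to 300 bp that both ends of 1 fragment could have. The same held for 135 of 236 IgG positions of the alpha locus (57.2%), and for H3KAc for 83.8% of the alpha and 37.1% of the beta positions. Such a share also rises with the density of positions, and the share from density alone was not computed. Independence of the positions was thus not tested, and the intervals may be too narrow. With reads of 1 strand alone the odds ratio was 0.564 (0.247 to 1.14) for plus and 0.503 (0.221 to 1.01) for minus, intervals that include 1, and the ratio at the beta locus for plus-strand reads was 1.80 (0.924 to 3.99).

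**Figure D1:**
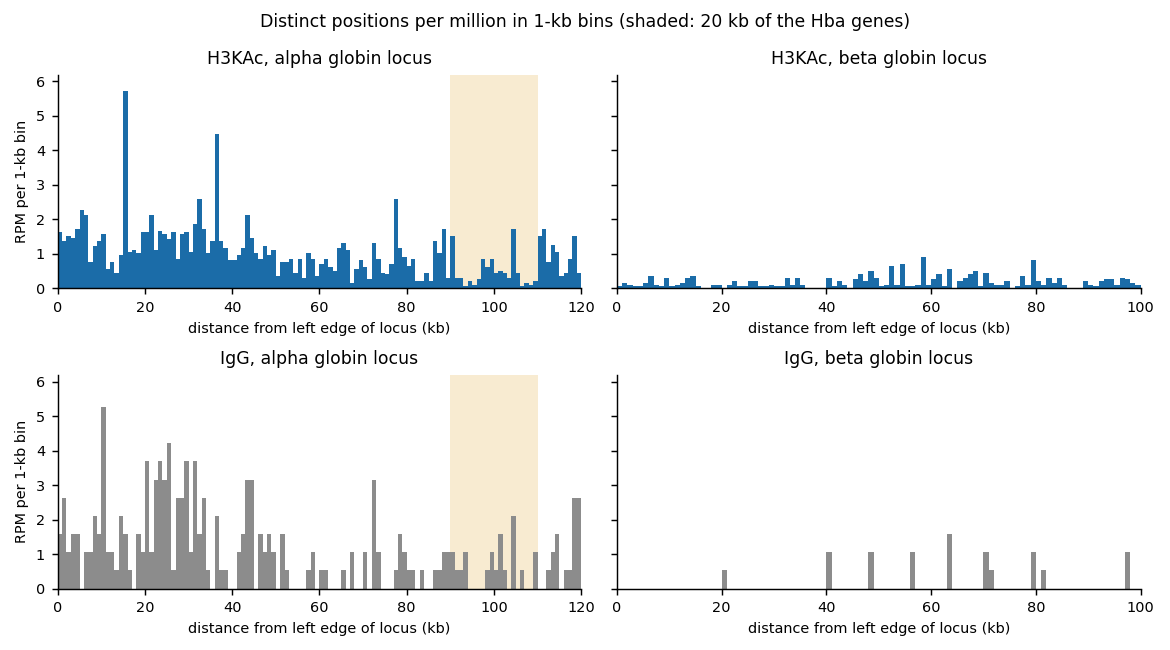
RPM in each 1-kb bin (vertical axis) against distance from the left edge of the locus in kb, for H3KAc (top) and IgG (bottom) at the alpha (left) and beta (right) globin loci; the shaded stretch is the 20 kb given for the Hba genes. H3KAc reached 5.73 RPM in 1 bin of the alpha locus and at most 0.913 RPM in the beta locus, where IgG positions were found in 10 of 100 bins.

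The alpha locus was covered throughout, while the beta locus held many bins with few positions or none. In H3KAc the 120 alpha bins held from 1 to 113 positions with a median of 17.5, and the 100 beta bins from 0 to 18 with a median of 2. The median over all covered bins was 6. It was exceeded by 102 of the 120 covered alpha bins (85.0%) and 14 of the 88 covered beta bins (15.9%), against 46.4% of all covered bins. The longest run of consecutive bins above that median was 56 bins in the alpha locus and 2 in the beta locus. Every alpha bin had at least 1 H3KAc position, whereas 13 beta bins had none, and 12 of those had no IgG position either. IgG was absent from 36 alpha and 90 beta bins. By a floor of 3 positions, a bin without an IgG position still allows 1.58 RPM, which is above the highest H3KAc bin of the beta locus (the exact interval of a count of 0 reaches 1.94 RPM). With IgG taken in the same bin, single beta bins therefore could not be told from background at this depth.

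Among windows of their own width the loci lay toward opposite ends. Only windows with at least 80% of their 1-kb bins covered were counted, so the emptiest windows of the genome are left out. Among 16605 consecutive windows of 120 kb, 94.7% had less H3KAc than the alpha locus and 91.8% less IgG. Its H3KAc to IgG ratio was above that of 41.6% of them, and their median ratio was 1.06. Among 19982 windows of 100 kb, 14.5% had less H3KAc than the beta locus and 1.88% less IgG, and 96.6% had a lower ratio. In the 1691 windows whose H3KAc was within 10% of the beta locus, the median ratio was 1.13, with 0.745 and 1.83 at the 5th and 95th percentiles. The beta locus, with its 18 IgG positions, lay just above that range, while the alpha locus was near the middle of its own. In the 780 windows within 10% of the alpha locus, the median ratio was 0.937 (0.682 and 1.52 at the same percentiles). These shares describe where the loci lie and are not a test.

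**Figure D2:**
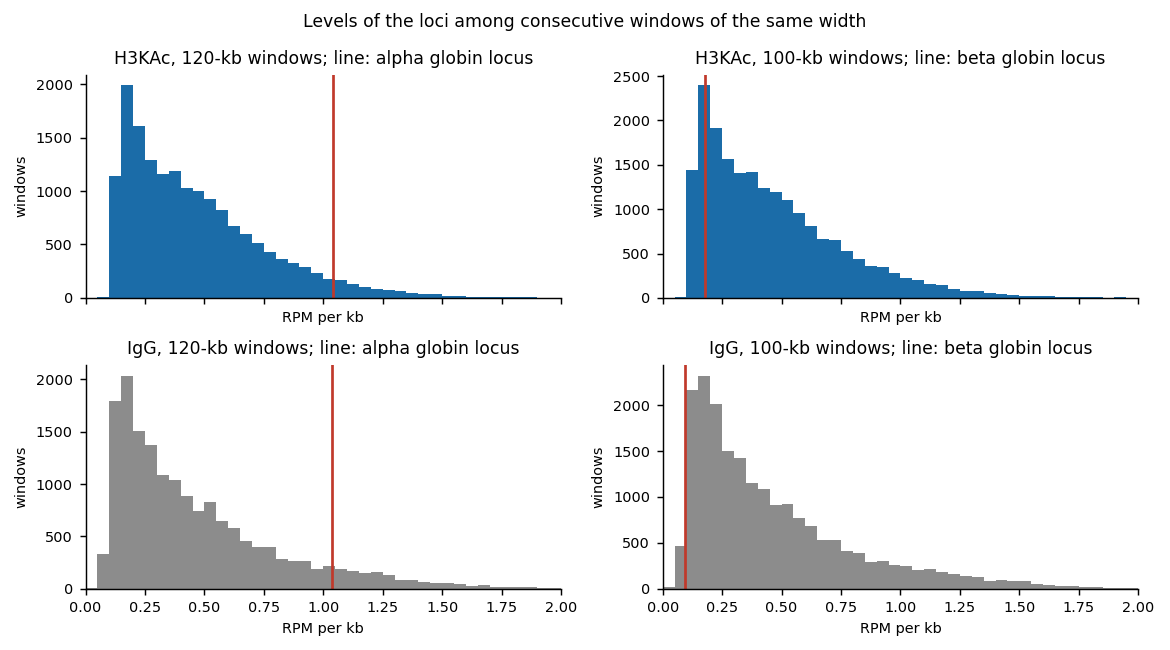
Number of consecutive genome windows (vertical axis) at each level in RPM per kb (horizontal axis, drawn up to 2) for H3KAc (top) and IgG (bottom), with 120-kb windows on the left and 100-kb windows on the right; the red line marks the alpha or beta globin locus. Windows with less than 80% of their bins covered are left out. The alpha locus lies in the upper tail of both libraries (94.7% and 91.8% of windows lower), and the beta locus in the lower tail (14.5% and 1.88% lower).

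The highest H3KAc bins lay in the alpha locus. There, 4 of 120 bins (3.33%) were at or above the 99th percentile of covered bins, which is 46 positions, against 1.02% of all covered bins. None of the 100 beta bins reached it, and none reached the 95th percentile of 24 positions, which 40 alpha bins (33.3%) and 5.57% of all covered bins did. The bin from 32105001 to 32106000 held 113 H3KAc positions, or 5.73 RPM (4.72 to 6.89), and 3 IgG positions, or 1.58 RPM. This was 4.34 times the mean of the 10 bins on each side (3.51 to 5.33), and 3.63 times IgG (1.21 to 17.8). The bin from 32126001 to 32127000 held 88 H3KAc positions, or 4.46 RPM (3.58 to 5.50), and 4 IgG positions. It stood at 3.30 times its neighbours (2.60 to 4.14). These are the tallest features in the track of 1-kb bins, and since bins were picked for their height, their contrasts are descriptions.

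The next bins were lower and less sharply set off. The bins from 32167001 to 32168000 and from 32122001 to 32123000 held 51 H3KAc positions each, or 2.59 RPM (1.93 to 3.40), with 1 and 3 IgG positions. The former was 3.92 times its neighbours (2.85 to 5.31), which had a mean of 13 positions per bin. The latter was 1.77 times its neighbours (1.30 to 2.36). Of the 10 highest alpha bins, the other 6 held between 34 and 45 positions and lay between 32094001 and 32134000. Just under the 99th percentile, the bin from 32095001 to 32096000 held 45 H3KAc positions and no IgG position. The 10 highest bins held 22.1% of the H3KAc positions of the alpha locus. Without them the alpha bins still held 17.4 positions on average, and the remaining beta bins 2.62.

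Few alpha bins were set apart from IgG one by one. Of the 112 alpha bins with at least 5 positions in both libraries together, 2 (1.79%) had a ratio whose lower bound was above 1, against 0.651% of all tested bins. They were the bins starting at 32105001 (bound 1.21) and 32095001 (bound 1.13), and neither had a bound above 1 with reads of 1 strand alone, which leaves fewer positions. With IgG taken over 11 neighbouring bins, 18 of the 120 alpha and 12 of the 100 beta bins had a bound above 1, against 7.84% of all tested bins. A bound above 2 was found in 2 of the 120 alpha bins, which is near the 1.54% of all tested bins. How many bins of each locus were tested under this setting is not given. With IgG in the same bin, no alpha bin and none of the 29 tested beta bins had a bound above 2, against 0.0836% of all tested bins. At this depth the highest beta bin, with 18 H3KAc and no IgG positions, had a lower bound of only 0.423. No bin of either locus had an upper bound below 0.5, against 0.629%. With shares this small, the absence of such bins is not a result about the loci.

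**Figure D3:**
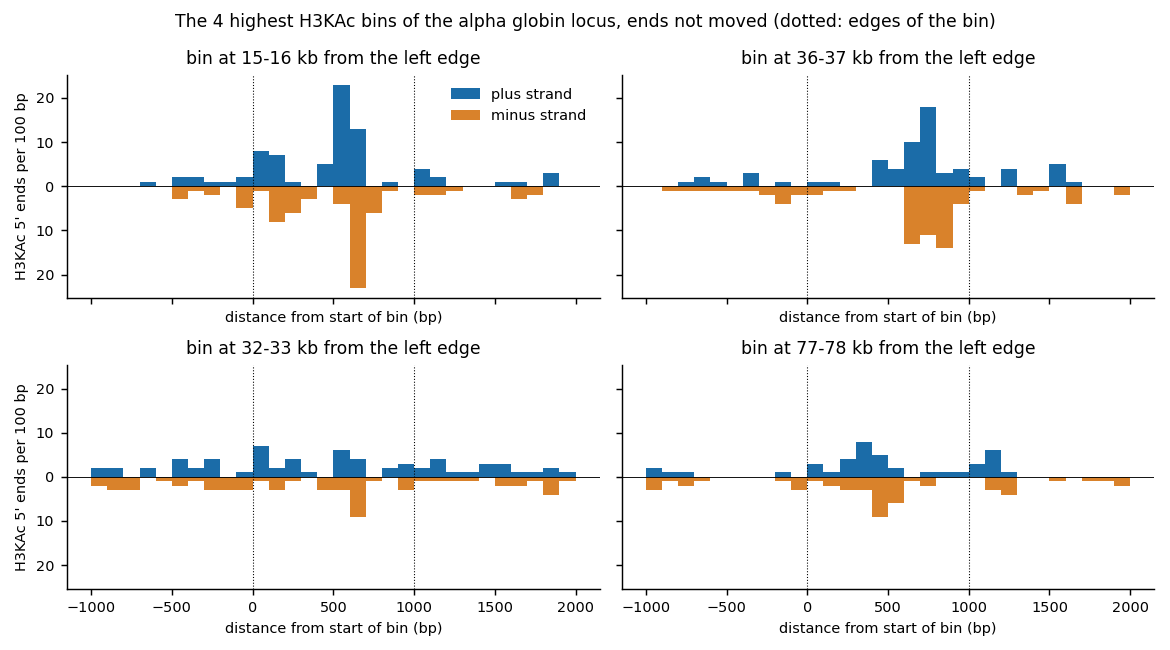
H3KAc 5′ ends per 100 bp (vertical axis; plus strand upwards, minus strand downwards, ends not moved) against distance in bp from the start of the bin, for the 4 highest bins of the alpha globin locus. In the bins at 15, 36 and 77 kb from the left edge the fullest 300 bp held 62.7%, 74.2% and 62.3% of the ends drawn within the bin, and in the bin at 32 kb 47.2%.

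Within 3 of the 4 highest alpha bins the positions gathered in narrow clusters. Counts here are of reads moved 100 bp along their strand, in steps of 100 bp from the start of the bin. In the bin from 32105001 the first 3 steps held 10, 14 and 10 positions, the next held 1 and 4, and those from 500 to 800 bp held 28, 29 and 14. It thus had a smaller and a larger cluster with few positions between them. In the bin from 32126001, 61 of 88 positions (69.3%) lay between 600 and 900 bp, and the step from 300 to 500 bp had none. In the bin from 32167001, 33 of 51 (64.7%) lay between 300 and 600 bp. The bin from 32122001 was less concentrated, with 20 of 51 positions (39.2%) in its fullest 300 bp. Both strands contributed to each of the 4 bins, with 60 plus and 53 minus positions in the highest, 43 and 45 in the next, and 25 and 26 in the bin from 32167001.

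H3KAc was not even along the alpha locus, and IgG followed a similar course. In consecutive 10-kb segments from the left edge, H3KAc was 1.55, 1.49, 1.52, 1.75 and 1.17 RPM per kb in the first 50 kb. From there it was 0.660, 0.781, 0.928, 0.700, 0.507 and 0.441, and in the last segment 0.999. IgG in the same order was 1.42, 1.48, 2.85, 1.26 and 1.42 RPM per kb, then 0.369, 0.263, 0.843, 0.474, 0.474 and 0.632, and last 0.949. Both libraries were thus higher in the left 50 kb than in the segments up to 32200000. Across the 120 bins the rank correlation (Spearman) of H3KAc and IgG was 0.537, and 0.529 without the 10 highest H3KAc bins. It is a description, since neighbouring bins are not independent and both libraries share the same chromatin and alignment.

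**Figure D4:**
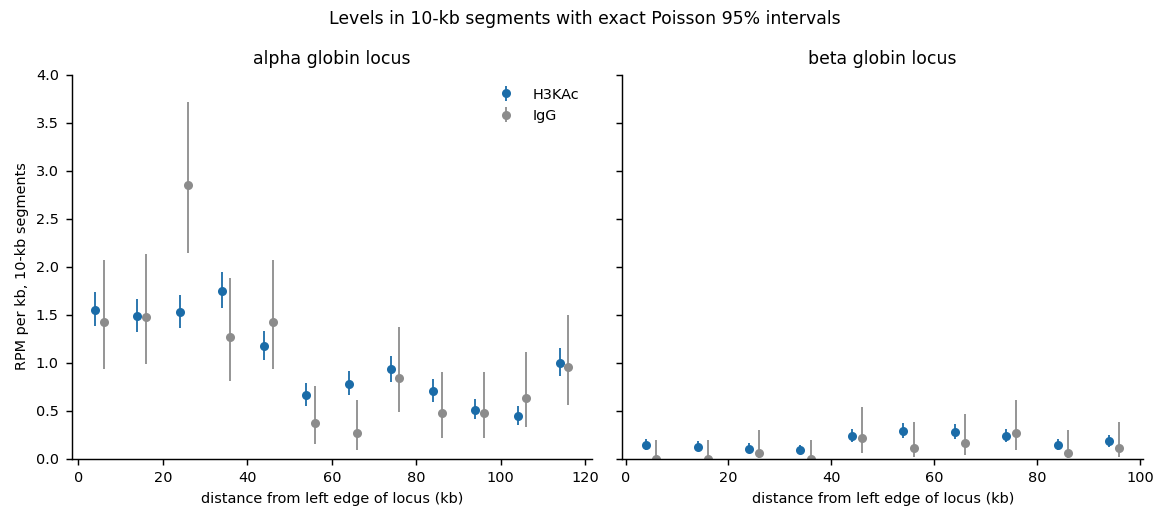
RPM per kb (vertical axis) in 10-kb segments against distance from the left edge of the locus in kb, for H3KAc (blue) and IgG (grey) at the alpha (left) and beta (right) globin loci; points are single-library values and bars exact Poisson 95% intervals. IgG exceeded H3KAc between 20 and 30 kb of the alpha locus (2.85 against 1.52 RPM per kb), and all beta segments lay at or below 0.284 RPM per kb in both libraries.

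Of the 12 alpha segments, 10 had a ratio of H3KAc to IgG whose interval included 1. The segment from 32110001 to 32120000 was below 1, with 300 H3KAc and 54 IgG positions and a ratio of 0.535 (0.399 to 0.729). It held the bins from 32115001, 32110001, 32113001 and 32119001, which are among the 5 alpha bins with the most IgG positions (8, 7, 7 and 7; the bin from 32121001 also held 7). The remaining one, from 32100001 to 32101000, had 10 IgG and 31 H3KAc positions, a ratio of 0.298 (0.143 to 0.682). The segment from 32150001 to 32160000 was above 1, with 154 H3KAc and 5 IgG positions and a ratio of 2.97 (1.24 to 9.26), although its H3KAc level was among the middle ones. It rests on 5 IgG positions. The segment with the 113-position bin had a ratio of 1.01 (0.683 to 1.54) and that with the 88-position bin 1.38 (0.912 to 2.18).

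At the Hba genes themselves H3KAc was low for the alpha locus. The 20 kb from 32180001 to 32200000 held 187 H3KAc positions, 0.474 RPM per kb (0.409 to 0.547), which was 0.411 times the level of the rest of the locus (0.352 to 0.477). IgG there had 21 positions, 0.553 RPM per kb (0.343 to 0.846), and was 0.488 times the rest (0.296 to 0.766). With H3KAc thinned to the number of IgG positions, the H3KAc value was 0.262 (0.129 to 0.478), and with plus-strand reads alone the IgG value was 0.594 with an interval that includes 1 (0.297 to 1.08). The ratio of H3KAc to IgG was 0.857 (0.545 to 1.42), against 1.02 (0.877 to 1.18) in the 90 kb to the left and 1.05 (0.650 to 1.81) in the 10 kb to the right. Against the rest of the locus, H3KAc and IgG were thus low together. Against the adjacent segments from 32140001 to 32180000 only H3KAc was lower. Those segments had 0.660 to 0.928 RPM per kb in H3KAc, and the Hba segments 0.507 and 0.441. In IgG they had 0.263 to 0.843, a range that holds the 0.474 and 0.632 of the Hba segments. The interval of the H3KAc level of the 20 kb included the mean over all covered bins, 0.445 RPM per kb.

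The low level of the Hba stretch came with empty stretches. From 32183001 to 32187000 its bins held 1, 4, 2 and 5 H3KAc positions, and from 32196001 to 32200000 they held 1, 3, 2 and 4. The bins starting at 32180001 and 32194001 held 30 and 34. All 6 of the longest stretches of the alpha locus without an H3KAc read start lay within these 20 kb. The longest ran from 32182914 to 32184321 (1408 bases), followed by 1194 bases from 32198404 and 1040 bases from 32196133. IgG had none from 32183265 to 32188484 and from 32196097 to 32199650. Whether 35-base reads have more than 1 match in these stretches, as they do in the promoters of Hba-a1 and Hba-a2, was not tested, so the level at the Hba genes holds only for reads that were placed there.

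The beta locus was low along its whole length. H3KAc in its 10-kb segments, from the left, was 0.137, 0.122, 0.101 and 0.0913 RPM per kb, then 0.233, 0.284, 0.274 and 0.233, and last 0.137 and 0.178. The segments from 110970001 to 111010000 thus held more positions (46, 56, 54 and 46) than those on either side (18 to 35). IgG had 4, 2, 3 and 5 positions in these segments and 0 to 2 in each of the others. The ratio's interval included 1 in all 10 segments, and the 3 without an IgG position have no upper bound. The highest beta segment, with 56 H3KAc positions, was still below the lowest alpha segment, with 87, by a ratio of alpha to beta of 1.55 (1.10 to 2.21). Both were picked as the extremes of their locus. In IgG the lowest alpha and the highest beta segment held 5 positions each.

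The highest H3KAc bin of the beta locus, from 110988001 to 110989000, held 18 positions, or 0.913 RPM (0.541 to 1.44), and no IgG position. It was above 88.7% of all covered bins. The bins from 111009001, 110984001, 110982001 and 110993001 followed with 16, 14, 13 and 11 positions and with 2, 0, 0 and 3 IgG positions. The bin from 111009001 was the most set off from its neighbours, at 5.52 times their mean (2.96 to 9.73), and 14 of its 16 positions (87.5%) lay between 500 and 800 bp. Its 2 IgG positions lay there as well, in the steps from 500 and from 600 bp. Such local contrasts rest on few positions, and each bin was picked as the highest of 100. Of the 10 highest beta bins, the other 5 held 8 to 10 positions.

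Empty stretches were also longest in the beta locus. No H3KAc read start was found from 110965764 to 110970455 (4692 bases), nor from 111015498 to 111019092 (3595 bases). IgG had none from 110950716 to 110970429 (19714 bases). Levels per kb were also compared with bins without any position left out of the length. The alpha level was then 5.11 times the beta level in H3KAc (4.57 to 5.73) and 9.61 times in IgG (5.95 to 16.5). The H3KAc value lay below the interval found with the full length (5.20 to 6.52). Bins with few positions kept their full length under this setting. Whether reads could be placed in the empty stretches of the beta locus was not tested, so its level holds only for reads that were placed there.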

How the data were processed

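Each row of the deposited files is an aligned read with its chromosome, 0-based start and end, 2 columns of placeholders and strand, per the file headers in the authors' readme. Reads were aligned with Bowtie to mm9, per the submitters' processing notes. Its version, any filter and the handling of reads with several matches were not stated in these sources. The H3KAc library held 21845451 reads at 19711169 distinct positions (1.11 reads per position), and the IgG library 7626703 reads at 1897666 positions (4.02 per position). The low number of IgG positions limits every ratio.

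Copies of a 5′ end on a strand were collapsed to 1 distinct position, moved 100 bp along their strand and assigned to 1-kb bins. Ratios have exact conditional binomial (Clopper-Pearson) 95% intervals, single levels exact Poisson intervals, and the ratio of ratios the conditional odds ratio with its exact interval. Bins with at least 5 positions in both libraries together were tested against bounds of 2, 1 and 0.5. The calls and intervals were tested on simulated independent Poisson counts, which do not include dependence between positions. Coordinates are 1-based. The bins named are the 10 with the most H3KAc and the 5 with the most IgG positions in each locus (ties by the left-most), and those past a bound. Further single bins, segments and empty stretches were chosen after their values were seen. The loci, rules and gene lists were chosen with earlier results of these data known. Alternatives were all deposited reads, reads not moved, measured shifts (29 and 79 bp), IgG scaled by background windows, H3KAc thinned to the IgG number, 1 strand, 500-bp bins, IgG over 11 bins, the 95th percentile, trimmed edges and leaving out the 10 highest bins. Leaving empty bins out of the length, for levels, was added after seeing the data. Computations ran in Python 3.11.15 with scipy 1.17.1 and numpy 2.4.6, tables in pandas 2.3.3, and plots in matplotlib 3.10.9.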

Additional observations from a re-analysis of the deposited data

How the results depend on the processing

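Of 132 values of the comparisons recomputed under an alternative, 117 stayed within the interval of the reported value (for counts of bins, within 1.5 times) and 15 did not. Values whose interval excluded 1 stayed on their side of 1 under all alternatives run. The ratio at the alpha locus, 1.004, was below 1 under 4 of its 9 alternatives (0.936 with H3KAc thinned, 0.987 with IgG scaled, 0.988 with trimmed edges and 0.997 with minus-strand reads), and its interval included 1 under all 9. H3KAc at the alpha over the beta locus was 4.49 (3.21 to 6.43) with H3KAc thinned. It was 6.65 without the 10 highest bins of each locus (in IgG 18.6 in place of 10.9) and 5.11 with empty bins left out of the length. The Hba stretch over the rest of the alpha locus was 0.262 (0.129 to 0.478) with H3KAc thinned. Thinning is a random draw that leaves fewer positions, and its intervals for these ratios include the reported values of 5.81 and 0.411. With all deposited reads, copies enter as independent. Then 10 alpha bins had a lower bound above 2, and 24 alpha and 3 beta bins one above 1. An upper bound below 0.5 was found in 2 alpha and 2 beta bins. The shares of all tested bins under this setting are not given, so these counts are not a result about the loci. With IgG over 11 bins, 2 of the 120 alpha bins had a bound above 2, near the 1.54% of all tested bins. A bound above 1 was found in 18 of the 120 alpha and 12 of the 100 beta bins, against 7.84%. The 2 alpha bins with a bound above 1 became 0 with reads of the plus strand and 0 with those of the minus strand, which leaves fewer positions. At the 95th percentile 40 alpha bins were counted in place of 4. Of 162 recomputed levels of named bins, 142 stayed within their interval, and 16 of the 20 others came with thinned H3KAc. No paired analysis was possible because each group has 1 library. The 18 IgG positions of the beta locus limit every ratio there.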

Other observations

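Reads removed as copies of a position entered none of the main comparisons and were used only in the alternative with all deposited reads. At the alpha locus 245 H3KAc and 689 IgG reads were removed, a ratio per 1000000 reads of 0.124 (0.107 to 0.144). At the beta locus 32 and 61 were removed, a ratio of 0.183 (0.116 to 0.285). An IgG position was read 3.92 times on average at the alpha locus and 4.39 times at the beta locus, and 1 beta position was read 15 times. An H3KAc position was read 1.10 and 1.09 times. Over the whole libraries a position was read 1.11 times in H3KAc and 4.02 times in IgG. The low ratios of removed reads are therefore not particular to these loci. No 1-kb bin of either locus held more removed H3KAc than IgG reads per 1000000 by its interval.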
